A study of Homo sapiens with 3 samples.

Results

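VMP1, RAD51B, PHLDA1, ERRFI1 and FMNL2 are 5 of 20037 protein-coding genes. They were chosen by their place in a ranked list of regions rich in acetylated lysine 27 of histone H3 (H3K27ac): each holds, or is the nearest protein-coding gene to, a region ranked 26 or better of 2710. The H3K27ac ranks and scores near these genes are therefore a description of the choice and not a finding. Other genes, such as FGD6 at rank 14 and ACTN4 at rank 18, meet the same rule and are not among the 5. The regions come from CUT&RUN, an assay in which an antibody brings a nuclease to its target in nuclei and the freed DNA is sequenced. The cells were H1299, an established human lung cancer line that the labels describe as lung adenocarcinoma, with no treatment, genotype change or time point given. The line gave 3 libraries: SP1, a transcription factor, was the target of 1, H3K27ac of 1, and control IgG, which was not analysed here, of the last. With 1 library per antibody, values have no replicates, no test was possible and nothing measures the spread between cultures.

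H3K27ac marks active enhancers and promoters. Enhancers can act on genes over long distances, often from introns or from the space between genes, and stretches with very high signal are called super-enhancers. SP1 is a zinc-finger factor that binds GC boxes, mostly in promoters. The 5 genes do different work. VMP1 encodes a membrane protein of the endoplasmic reticulum that autophagy needs. RAD51B acts in the repair of DNA breaks by recombination. PHLDA1 encodes a pleckstrin-homology-like protein induced by growth signals. ERRFI1, also called MIG6, encodes a feedback inhibitor of the EGF receptor kinase. FMNL2 encodes a formin, which builds actin filaments at the cell edge.

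The best-ranked H3K27ac regions lay 64.0 to 320 kb from the starts of the 5 genes. Whether the ranked lists leave out peaks near gene starts, which would affect such distances, was not tested. None of the genes had a summit of either library within 1000 bases of its start. Most protein-coding genes had no called summit of either library at an end. Within 1000 bases of either end, SP1 was called at 0 of the 5 genes, beside 13.7% of all protein-coding genes. For SP1 a count of 0 of 5 does not set these genes apart. By the same measure H3K27ac was called at 1 of the 5, at the far end of RAD51B, beside 0.848% of all genes. The choice of genes used H3K27ac. Of the 11 SP1 summits around the genes, 6 were at ends of other genes. The ranked SP1 regions held 3 of the 11, and none of those 6. SP1 was called inside the best-ranked region of PHLDA1 and of ERRFI1, and was 14.9 kb, 105 kb and 211 kb away from those of RAD51B, VMP1 and FMNL2.

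A summit is the single highest base of a called peak. Its score is the −log10 of either a p-value or a q-value, and which of them is not stated. A ranked region holds 1 peak or joins neighbouring ones, and rank 1 is best. Of the H3K27ac regions 96.4% held 1 peak, and of the SP1 regions 96.6% did. Not every summit lies in a ranked region. The region signal that was ranked on is not in the file, and without read counts the depth of each library is unknown. Median scores were 5.01 over the 3201 H3K27ac summits and 6.17 over the 5570 SP1 summits. Anything below the calling threshold was not listed, so a missing summit is not an absence of binding or acetylation. A set of 15 markers of lung epithelium, epithelial junctions and mesenchymal state had no H3K27ac summit within 10 kb of any gene span, so these lists could not be used to check the cell type. Among the same markers NAPSA and EPCAM had an SP1 summit within 10 kb. Of 5 blood cell markers, PTPRC had an H3K27ac region over its span, ranked 2460.

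The sequences before the starts of 4 of the genes are shown because they are where an SP1 summit might be looked for, and no summit of either library fell in them. Each is the 250 bases before the RefSeq start site (GRCh38.p14), 5′ to 3′ on the strand of the gene, and capitals mark the GC box GGGCGG. They lie at chr17:59707404-59707653 on the plus strand for VMP1, at chr12:76031777-76032026 on the minus strand for PHLDA1, at chr1:8026310-8026559 on the minus strand for ERRFI1 and at chr2:152334924-152335173 on the plus strand for FMNL2.
VMP1: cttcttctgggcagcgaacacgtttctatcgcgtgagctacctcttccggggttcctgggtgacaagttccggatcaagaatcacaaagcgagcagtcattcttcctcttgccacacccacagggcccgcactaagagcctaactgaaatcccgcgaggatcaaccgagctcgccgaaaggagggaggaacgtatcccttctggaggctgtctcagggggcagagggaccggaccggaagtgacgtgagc
PHLDA1: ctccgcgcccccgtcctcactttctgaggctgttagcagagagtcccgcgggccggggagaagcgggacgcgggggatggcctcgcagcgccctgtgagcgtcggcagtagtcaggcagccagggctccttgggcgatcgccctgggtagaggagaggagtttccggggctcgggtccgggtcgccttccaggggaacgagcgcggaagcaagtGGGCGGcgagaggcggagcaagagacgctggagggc
ERRFI1: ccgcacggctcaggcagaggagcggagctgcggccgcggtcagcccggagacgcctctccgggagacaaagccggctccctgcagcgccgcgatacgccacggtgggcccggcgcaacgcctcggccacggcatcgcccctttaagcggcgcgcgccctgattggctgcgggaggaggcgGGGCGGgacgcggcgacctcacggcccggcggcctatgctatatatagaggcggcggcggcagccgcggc
FMNL2: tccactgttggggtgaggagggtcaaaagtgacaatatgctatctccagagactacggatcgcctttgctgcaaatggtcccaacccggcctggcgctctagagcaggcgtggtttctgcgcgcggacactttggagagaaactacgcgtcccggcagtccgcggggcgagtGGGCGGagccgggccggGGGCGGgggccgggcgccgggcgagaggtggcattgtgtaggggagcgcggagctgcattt

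The GC box, searched as GGGCGG on both strands, occurred once before PHLDA1, once before ERRFI1 and 2 times before FMNL2, always on the strand of the gene. It did not occur before VMP1. For RAD51B the RefSeq table lists 2 start sites, 3762 and 3813 bases inside the low-coordinate end of the span, and neither had the motif in its 250 bases. The bases before that end of the RAD51B span were not searched. Thus 3 of 5 genes had a GC box before a listed start site. Counted by start site, of which a gene can have several, 42.6% of all 35116 had one. The AP-1 element TGANTCA, which reads alike on both strands, was found before none of the 5 genes and before 6.57% of all start sites. The GC content of the 250 bases was 58.0% for VMP1, 70.4% for PHLDA1, 75.2% for ERRFI1 and 65.2% for FMNL2, beside a median of 58.0% over all start sites. The upstream RAD51B window had 29.6%. A match to these letters is a description and not a bound site.

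Within 150 kb of the 5 gene spans lay 26 H3K27ac summits, 11 SP1 summits, 16 H3K27ac regions and 3 SP1 regions. The map of summits by distance from each start shows them all. All 5 genes had an SP1 summit in this window, as did 60.2% of protein-coding genes. All 5 had an H3K27ac summit there, as did 31.4% of genes, but this was fixed by the choice of members.

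**Figure D1:**
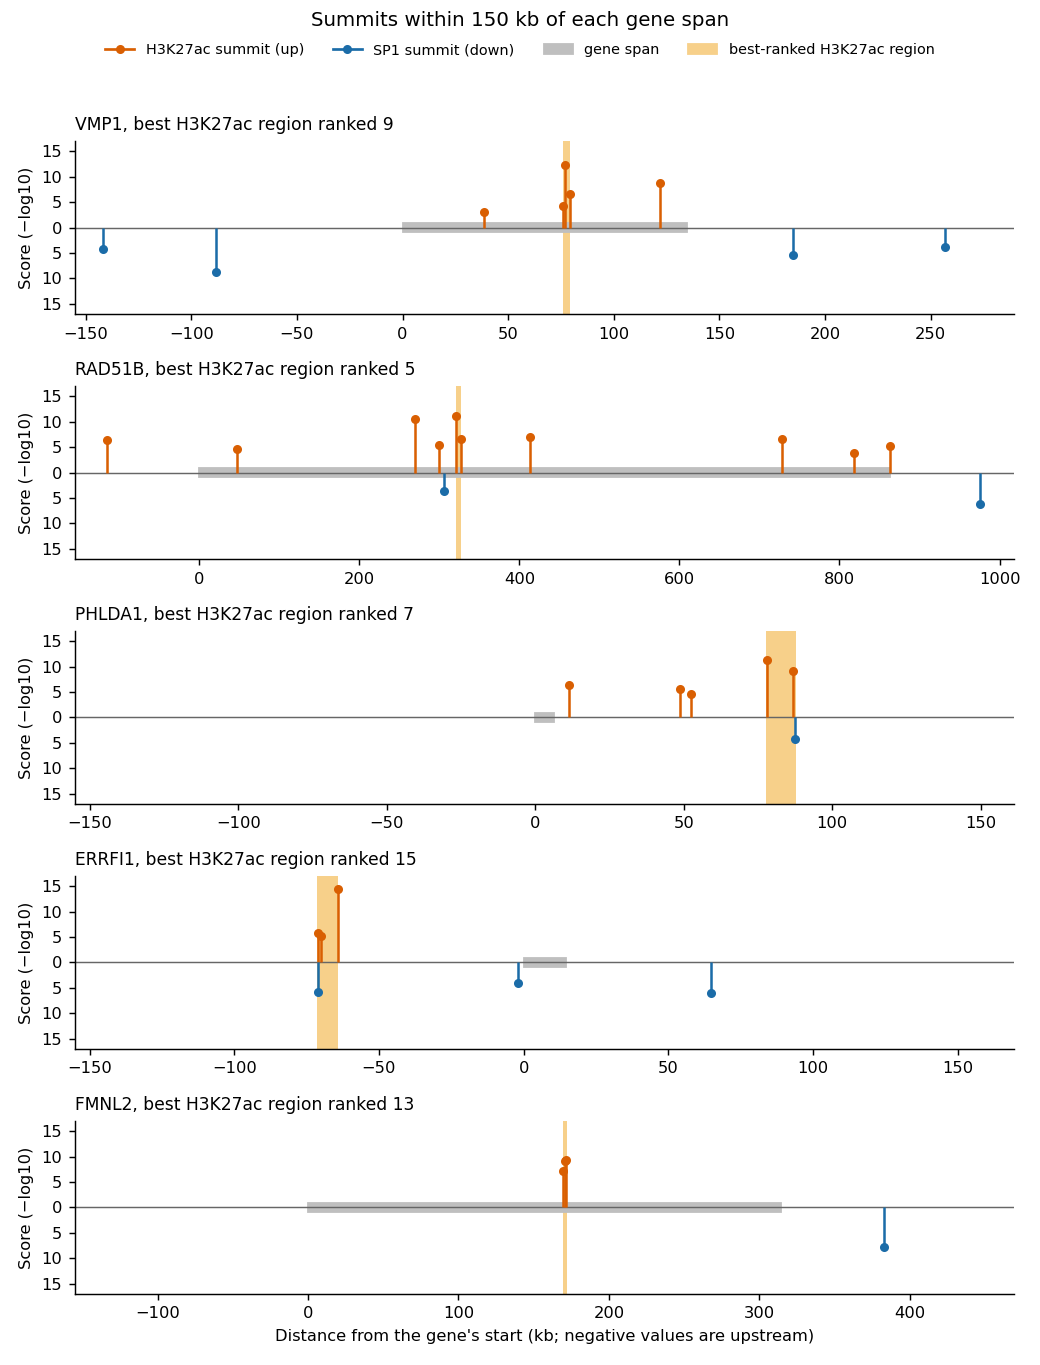
Summits within 150 kb of each of the 5 gene spans (grey bars), by distance from the start of the gene in kb, with H3K27ac scores drawn upwards and SP1 scores downwards and the best-ranked H3K27ac region shaded. The shaded region lies inside the span of VMP1, RAD51B and FMNL2 and outside that of PHLDA1 and ERRFI1, and holds an SP1 summit at the last 2 only.

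VMP1 spans 59707654 to 59842255 on chromosome 17 (hg38), on the plus strand, and its region ranked 9 lies at 59783712 to 59787171, inside the gene. The region is 3460 bases long and joins 3 peaks. Their summits had scores of 4.29 at 59783727, 12.4 at 59784384 and 6.57 at 59786879. The strongest summit thus stood in the middle, 657 bases from the one before it and 2495 from the one after, at 57.0% of the gene's length from its start. Of the 3201 H3K27ac summits 48 scored higher. The annotation used gives spans only, so introns and exons were not told apart. A second region of 645 bases, ranked 95 with a score of 8.79, lay at 59829541 to 59830185, and another, ranked 2416 with a score of 3.09, lay 38.6 kb inside the gene. No other H3K27ac summit was called within 150 kb.

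The second VMP1 region is the one nearest to MIR21, the gene of the microRNA miR-21, which is abundant in many cancers and whose primary transcript starts within VMP1. The 72 bases of the MIR21 hairpin, at 59841266 to 59841337, end 918 bases before the far end of VMP1. The region ranked 95 lay 11.1 kb upstream of it and the region ranked 9 lay 54.1 kb upstream. The RefSeq mature sequence is shown to identify this neighbour, with the seed (bases 2 to 8) in capitals; it lies at chr17:59841273-59841294 on the plus strand.
hsa-miR-21-5p: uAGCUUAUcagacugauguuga

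No SP1 summit lay inside VMP1. The 4 SP1 summits in its window were all at ends of other genes. The highest, with a score of 8.84, lay 429 bases upstream of the start of CLTC, which encodes the clathrin heavy chain, and 88.2 kb upstream of VMP1. A summit of 5.46 lay 376 bases inside the start of TUBD1, a tubulin gene, and 554 bases upstream of RPS6KB1, which encodes the S6 kinase of the mTOR pathway. The summits at DHX40 and RNFT1 scored 4.23 and 3.84. PTRH2, whose span ends only 224 bases from the start of VMP1, had none at its ends, so the shared start of these 2 genes carried no called SP1 summit.

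RAD51B spans 67819779 to 68683096 on chromosome 14, or 863 kb, and only 0.504% of protein-coding genes have a longer span. It held the best rank of the 5 genes, 5, at 68140143 to 68146944. This region is 6802 bases long and joins 2 peaks, with summits of 11.2 at 68140274 and 6.65 at 68146760, which stand 6486 bases apart. The higher one lay at 37.1% of the gene's length. A lncRNA gene, LOC105370546, also covers the region, and a pseudogene, RN7SL706P, lies 2.67 kb from it.

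Acetylated regions were spread along RAD51B. Besides the best one, 6 more regions overlapped the span, and another began 73 bases beyond its far end. Their ranks were 100, 116, 128, 182, 617, 618 and 1830. The region ranked 100 had a summit of 10.6, which was nearly as high as that of the region ranked 5, but it was only 667 bases long. The summit of 5.27 beyond the far end, 172 bases from it, was the 1 summit of the 26 that lay within 1000 bases of an end of its own gene. Over all protein-coding genes 0.848% had an H3K27ac summit at an end. The last of the 10 H3K27ac summits, with a score of 6.47, lay 116 kb upstream, 2131 bases inside RDH12, a retinol dehydrogenase gene, and was in no ranked region.

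SP1 was called 2 times in the window of RAD51B. The summit inside the gene, at 68125276, scored 3.64, and only 3.18% of the SP1 list scored lower. It lay 6332 bases from the nearest H3K27ac summit, which was in the region ranked 1830, and 14.9 kb from the region ranked 5. The other, of 6.27, lay 1254 bases inside ZFP36L1, a regulator of mRNA decay and the next protein-coding gene beyond RAD51B. ZFYVE26, whose span ends 3.19 kb from that of RAD51B, had no SP1 summit at an end.

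PHLDA1 is the shortest of the 5 genes, at 76025447 to 76031776 on chromosome 12, on the minus strand. All H3K27ac summits called in its window lay on one side, beyond the far end of the gene. The region ranked 7, at 75943914 to 75954077, was the longest of the 5 best ones, with 10164 bases and 2 summits, 9.08 at 75944881 and 11.4 at 75953881, 9000 bases apart. It lay 71.4 kb from the gene span. A second region, ranked 16, lay nearer, at 42.2 kb, with summits of 4.53 and 5.55. The last, ranked 179 with a summit of 6.43, was 4.91 kb from the gene. The nearer regions were thus the lower-ranked ones. On the other side of the region ranked 7, the next protein-coding gene, KRR1, was 432 kb away. NAP1L1, a histone chaperone gene 4.81 kb upstream of PHLDA1, was 82.5 kb from the region.

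The only SP1 summit within 150 kb of PHLDA1 was inside the region ranked 7. It lay at 75944224 with a score of 4.21, 657 bases from the H3K27ac summit of 9.08, and 13.2% of the SP1 list scored lower. It formed an SP1 region of 381 bases ranked 483 of 2356, which overlapped the H3K27ac region. No SP1 summit was called between this region and the gene.

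ERRFI1 spans 8011727 to 8026309 on chromosome 1, on the minus strand. It had a single H3K27ac region in its window, ranked 15, at 8090357 to 8097853, 64.0 kb upstream of the start. The region is 7497 bases long and joins 3 peaks. The summit nearest to the gene, at 8090543, scored 14.4, which was the highest of the 26 H3K27ac summits, and 37 summits of the list were higher. The other summits scored 5.13 at 8096394 and 5.87 at 8097297. The region lies inside ERRFI1-DT, a lncRNA gene whose symbol marks it as the divergent transcript of ERRFI1. The next protein-coding gene beyond it, SLC45A1, was 220 kb away.

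ERRFI1 was the 1 gene of the 5 with SP1 both at its distal region and near its start. In the region an SP1 summit of 5.76 at 8097481 lay 184 bases from the H3K27ac summit of 5.87, the closest pair of the 2 libraries in the 5 windows and the only one within 500 bases. It lay 6938 bases from the strongest H3K27ac summit. Its SP1 region, of 211 bases, ranked 1013. A second SP1 summit, at 8028064 with a score of 3.95, lay 1755 bases upstream of the ERRFI1 start. It is near but outside the sequence shown above, and 9.53% of the SP1 list scored lower. The last SP1 summit, of 6.02, lay 312 bases upstream of PARK7, which encodes a protein that guards against oxidative damage.

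FMNL2 spans 152335174 to 152649826 on chromosome 2, on the plus strand. The H3K27ac summits called in its 614.7 kb window were all in 1 region, ranked 13, at 152504730 to 152507356. This was the most compact of the 5 best regions, with 3 summits in 2627 bases. They scored 7.07 at 152504903, 9.11 at 152505885 and 9.25 at 152506994, with gaps of 982 and 1109 bases. Among the other best regions, those of VMP1 and ERRFI1 had 1 summit well above the rest. Those of RAD51B and PHLDA1 had only 2 summits, and the PHLDA1 scores, 9.08 and 11.4, were about as close as those of FMNL2. The highest FMNL2 summit stood at 54.6% of the gene's length, 172 kb from the start.

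The only SP1 summit in the FMNL2 window, of 7.70 at 152718153, lay 211 kb from the region and 68.3 kb beyond the gene. It lay 505 bases inside the span of ARL6IP6. It was the only summit of the 37 to fall in a start-site window of the RefSeq table, 171 bases before a listed start of ARL6IP6. The 300 bases of that window held no GC box. The 30 bases around the summit are shown, on the plus strand, with the summit base in capitals.
ARL6IP6: tgggggaacctggagAagagtgtgagcgta

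The plot of ranks sets the 16 regions side by side. The regions of 2 or 3 peaks held ranks from 5 to 16, and those of 1 peak held ranks from 95 to 2416. Over the whole H3K27ac list 98 of 2710 regions joined more than 1 peak, and 22 of the 26 best-ranked did. Their median length was 7190 bases, beside 234 over the list. A longer region can gather more signal, and how far length sets the rank was not tested. The region ranked 26, 20.8 kb from KRT80, had 1955 bases and a highest score of 7.57. The region ranked 27, 59.4 kb from KCNJ12, had 16263 bases and a highest score of 5.47. Likeness was taken as the next rank among regions within 100 kb of another protein-coding gene. By this measure ITGB1, an integrin gene, at rank 10 came after VMP1, FGD6 at rank 14 came after FMNL2, and ACTN4, an actinin gene, at rank 18 came after the second PHLDA1 region. These ranks come from 1 library.

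**Figure D2:**
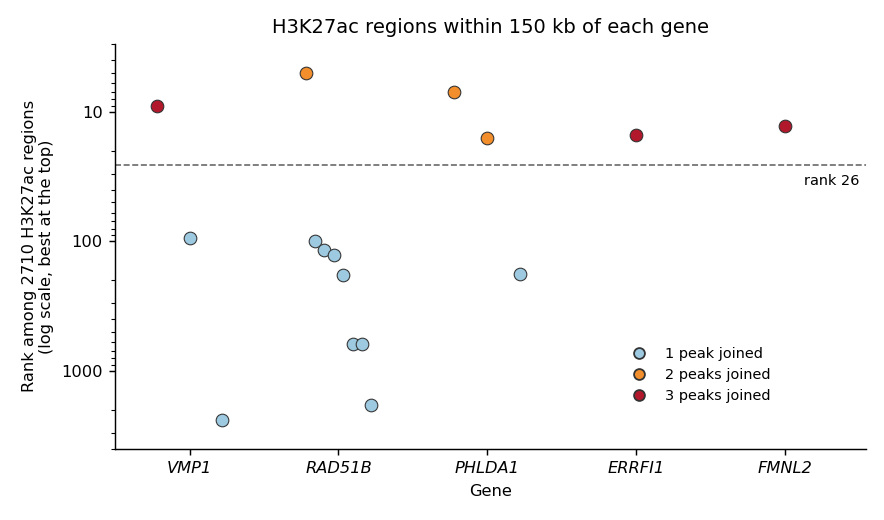
Rank (log scale, best at the top) of each of the 16 H3K27ac regions within 150 kb of the 5 genes, coloured by the number of peaks joined. RAD51B had 8 regions, VMP1 and PHLDA1 3 each, and ERRFI1 and FMNL2 1 each, and the dashed line marks rank 26.

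By score, the H3K27ac summits of the 5 genes lay mostly in the upper part of their list, which follows from the choice, and the SP1 summits did not. Of the 26 H3K27ac summits 21 scored above the list median, and of the 11 SP1 summits 3 did. The SP1 scores ran from 3.64 to 8.84, below the upper quartile of the list, 9.04. The SP1 summits above the median were those at CLTC, ZFP36L1 and ARL6IP6, none of them near a best-ranked region.

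**Figure D3:**
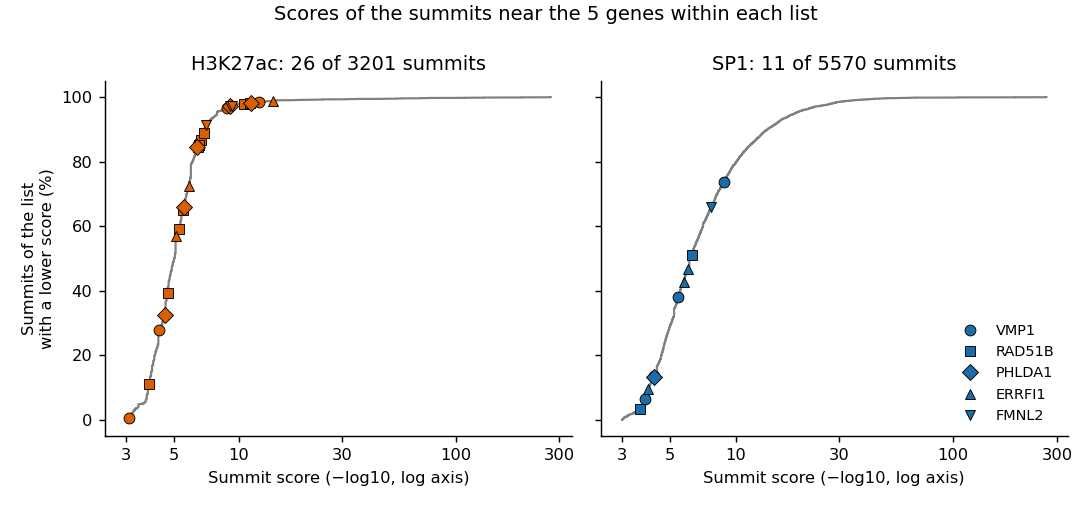
Score of each summit near the 5 genes (symbols) against the share of its list with a lower score, for H3K27ac on the left and SP1 on the right, with the grey line drawn through the whole list. H3K27ac summits reach 98.8% (ERRFI1, 14.4), whereas no SP1 summit lies above 73.8% (CLTC, in the VMP1 window, 8.84).

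No member had an SP1 summit within 1000 bases of either end of its span, beside 13.7% of all protein-coding genes. Of the 18 protein-coding neighbours within 150 kb, 8 had one, and none had an H3K27ac summit there. They included DHX40, CLTC, TUBD1, RPS6KB1, RNFT1, PARK7 and ARL6IP6, and the 8 shared 6 summits. The 10 without one were PTRH2, GPHN, VTI1B, RDH11, RDH12, ZFYVE26, ZFP36L1, NAP1L1, UTS2 and TNFRSF9. The 5 remaining SP1 summits were those in or near RAD51B, ZFP36L1, the PHLDA1 region, the ERRFI1 region and the ERRFI1 start. The count of SP1 summits in a window depends on gene length and on how many genes lie around. Per Mb of window there were 9.54 SP1 summits for ERRFI1, 9.20 for VMP1, 3.26 for PHLDA1, 1.72 for RAD51B and 1.63 for FMNL2, beside a median of 2.92 over all protein-coding genes (quartiles 0 and 6.45). ERRFI1 and VMP1 lay above the upper quartile and the other 3 between the quartiles. For H3K27ac, which the choice used, the values were 16.3 for PHLDA1, 11.5 for VMP1, 9.54 for ERRFI1, 8.60 for RAD51B and 4.88 for FMNL2.

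Among the 26 best-ranked H3K27ac regions, the 5 genes account for 6. An SP1 summit lay inside 2 of these 6, inside 2 of the 5 regions of the other genes within 100 kb (ITGB1 and FGD6, but not ACTN4, HLA-E or KRT80) and inside 10 of the 15 regions that were over 100 kb from any protein-coding gene. With summits within 500 bases also counted, the numbers were 2, 2 and 11. By that measure 2.91% of the 2684 regions ranked below 26 had an SP1 summit. The 26 best-ranked regions had a median length of 7190 bases, beside 234 over the list. A longer region can hold a summit more easily, and no allowance for length was made. The 3 groups also differed in score. The highest H3K27ac score per region was 5.55 to 14.4 for the 5 genes, 4.02 to 8.03 for the other genes and 5.34 to 275 for the gene-distant regions. The scores of SP1 inside the regions of PHLDA1 and ERRFI1, 4.21 and 5.76, were close to the 5.18 at ITGB1 and 5.07 at FGD6, whereas they reached 268 in gene-distant regions. At ranks 1, 2 and 3, all gene-distant, the highest H3K27ac and SP1 scores were nearly alike: 275 and 268, 224 and 226, and 202 and 193. The IgG library was not used here, so whether such scores depend on the antibody was not tested. With 6, 5 and 15 regions from 1 library each, no test of these differences was made.

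**Figure D4:**
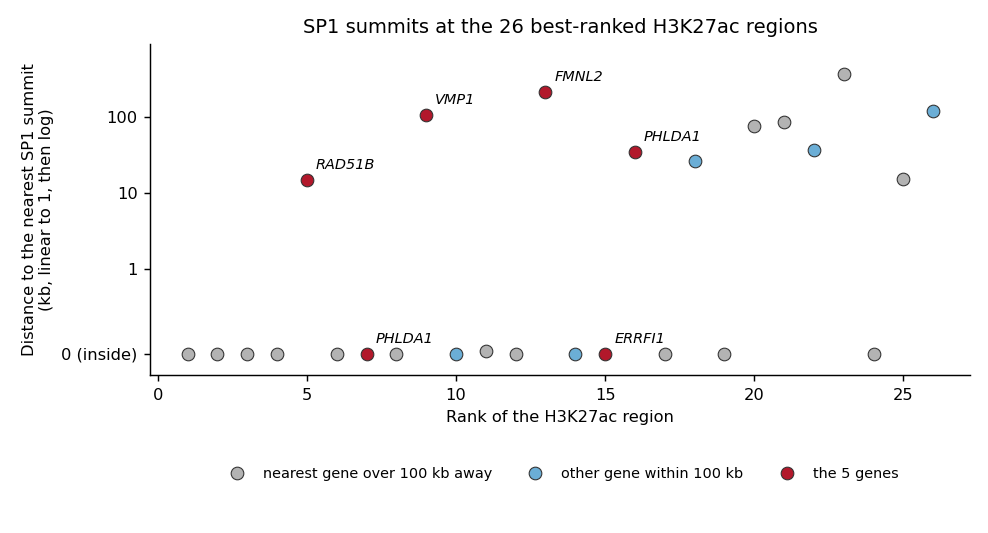
Distance in kb from each of the 26 best-ranked H3K27ac regions to the nearest SP1 summit, by rank (linear up to 1 kb, then log scale), with the regions of the 5 genes in red. PHLDA1 (rank 7) and ERRFI1 (rank 15) hold an SP1 summit, whereas RAD51B, VMP1, FMNL2 and the second PHLDA1 region lie 14.9 to 211 kb from one.

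Genes related to the 5 members by family or function were looked at in 5 lists of 12. At an end of 13 of these 60 genes an SP1 summit was called, beside 13.7% of all genes, and 3 had an H3K27ac region over the span, beside 4.74%. The ranks of those 3 regions were 1581, 1694 and 2277. Recombination genes, listed for RAD51B, had SP1 at 6 of 12, led by SWSAP1 at 32.0 and DMC1, the meiotic recombinase gene, at 11.1. None had a region over its span. Autophagy genes, listed for VMP1, had SP1 at 4 of 12, with ATG9A at 7.56 and WIPI2 at 6.57, and ATG7 held a region ranked 2277. Immediate early and related genes, listed for PHLDA1, had SP1 at 2 of 12, EGR1 at 10.6 and DUSP1 at 7.68, and HBEGF, an EGF receptor ligand gene, had an H3K27ac summit at an end. Receptor feedback genes, listed for ERRFI1, had SP1 at none of 12, and SPRED2 held a region ranked 1694. Of the 12 formins listed for FMNL2, FMNL1 had SP1 at 8.88 and FMN2 held the region ranked 1581.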

How the data were processed

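The submitters deposited, for the SP1 and the H3K27ac library, a list of peak summits and a list of ranked regions. The deposited summit score is the −log10 of either a p-value or a q-value. The other deposited value is a rank within each region list. The build (hg38) is named in the submitters' processing notes. Per the submitters' processing notes, the tools included cutadapt 2.5 and deepTools 3.4.1, whose roles are not stated. How reads were aligned, peaks called, replicates handled and regions ranked was not given in the sources used here. Item names ("peak", "lociStitched") resemble those of MACS and ROSE.

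Gene spans, start sites and sequences came from RefSeq (GRCh38.p14). Every summit and region within 150 kb of a span was listed, 1-based, with Python 3.11.15 and pandas 2.3.3. A gene end means within 1000 bases of either end of a span, and a region overlaps with at least 1 base. The start is the end of the span set by the strand in the start-site table. Nearest genes are protein-coding ones. The members and lists were chosen with earlier results of these data known. Named neighbours are protein-coding genes within 150 kb and any gene with an end within 10 kb of a best-ranked region. From each list up to 2 genes are named, highest score or best rank first, and genes near the regions at rank 26 or next in rank to a member's are named too. MIR21, LOC105370546, ERRFI1-DT, ATG7, HBEGF, HLA-E and the next genes beyond a region (KRR1, SLC45A1) were named after their values were seen. The counting was tested on simulated summits. The IgG library was not used here. Alternatives changed the window, the scores and regions kept, the distances and the gene kinds.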

Additional observations from a re-analysis of the deposited data

How the results depend on the processing

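No paired analysis was possible because each antibody has a single library. Of 27 alternative counts 18 stayed within 1.5 times the value reported and 9 did not, each by keeping fewer summits or regions, a narrower or wider distance, or more genes. Within 50 kb of the spans there were 2 SP1 summits and 1 SP1 region, and 2 of the 5 genes (RAD51B and ERRFI1) had an SP1 summit. With summits above the median score of their list, 3 SP1 summits at 3 genes were left, and 0 best-ranked regions held SP1, since those at PHLDA1 and ERRFI1 score below the median. Within 2500 bases of a gene end, 1 member, ERRFI1, had an SP1 summit. With the better-ranked 50% of regions, 0 related genes held a region. Counting genes of every kind, 3 members were still nearest to their best region. For PHLDA1 a pseudogene, RN7SL734P, was nearer, and for ERRFI1 the lncRNA gene ERRFI1-DT covered the region. Without depths, what sequencing more would add is not known. The nearest gene is not known to be the gene a region acts on.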

Other observations

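Over all 35116 listed start sites, 18.5% of the 14973 with a GC box in the 250 bases before them had an SP1 summit within 1000 bases, and 4.18% of the 20143 without one did. Several start sites of one gene can share a summit, so they are not independent, and no test was made. PHLDA1, ERRFI1 and FMNL2, which have a GC box, belong with the larger part of such start sites that had no called summit.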
